A study of Mus musculus with 12 samples.

Results

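Otx2, Pou3f1, Zic2, Zic5 and Foxd3 encode transcription factors that are used to recognise the formative epiblast, the state that pluripotent cells of the mouse embryo pass through after implantation. They were followed here through the exit of embryonic stem cells from the undifferentiated state. The members were taken by name: every non-control probe whose gene name in the scanner files was 1 of these 5 symbols. This gave 5 probes, 1 for each gene, of 41174 probes on the array and 5 genes of 28632. The choice was also worded as signal in all 6 groups, a rise at day 1 and a decline by day 4 of embryoid body culture. Those changes are therefore given below as values, without a test.

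Mouse embryonic stem cells resemble the naive epiblast of the blastocyst. When they leave that state they lose naive factors and gain formative ones before they become primed for germ layer formation. Otx2 is a homeodomain factor that acts early in this step, together with the POU factor Pou3f1 (also called Oct6), and redirects Oct4 to new enhancers. Zic2 and Zic5 are zinc finger factors encoded by neighbouring genes, and Foxd3 is a forkhead factor needed for the maintenance of the early epiblast and later for the neural crest. All of these genes are used again in the developing anterior nervous system or the neural crest.

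The cells were embryonic stem cells of mouse strain 129. There were 6 groups with 2 arrays each, labelled clone 1 and clone 2: undifferentiated cells (titled LIF), embryoid bodies (EB, floating aggregates) at days 1, 3 and 4, and monolayers (ML) at days 1 and 3. All groups were otherwise labelled alike, with no genetic change or added agent named. Medium, feeder layer and passage are not given in the sources used here. The design text describes independent experiments done by different people, so the spread between the 2 arrays of a group includes both clone and operator.

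Each array reports the brightness of 60-base probes after hybridisation of Cy3-labelled cRNA. A value below is the log2 of the processed signal minus the log2 of that array's 75th percentile, so 0 is the level of the 75th percentile and a step of 1 is a doubling. Between 52.1% and 63.8% of the 43379 non-control spots were well above background, the 75th percentile lay between 326 and 596 intensity units, and arrays of 1 group correlated at 0.971 to 0.992 over 18041 genes. The arrays fall on 4 slides by group. Slide 1, scanned first, held undifferentiated cells; slides 2 and 3, scanned together on a later day (scan day 2), held the day 1 and day 3 arrays of EB and of ML respectively; slide 4 held EB day 4 and was read last, by a different scanner. For undifferentiated cells and for EB day 4, group, slide and scan day cannot be told apart. The E1A spike-in controls, foreign RNAs added for labelling, were 1.29 higher at EB day 1, 1.18 at EB day 3, 1.26 at ML day 1 and 1.09 at ML day 3 than in undifferentiated cells, and differed by 0 at EB day 4. The groups with higher controls are those of scan day 2. Whether equal amounts of the controls were added to every sample is not given in the sources used here. Values scaled to them are therefore given below as an alternative, not as a reference for absolute levels. All 6 core pluripotency genes of the list used here (among them Pou5f1 and Sox2) were well above background on every array.

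The measured objects are the probes themselves, and the first 30 of the 60 bases of each are shown because every value below was read on them and they differ in CG content. CG dinucleotides are in capitals.
Otx2: agatcattggtttcctgatttgcaaatgat
Pou3f1: tcCGgCGCGcagttagCGCGCGCGgcctgg
Zic2: cttccttttccaCGgtgattttaaCGgctt
Zic5: tttcaaatgtgaatttgaCGgttgtgatag
Foxd3: ctgtgggggtgggagggacattctttgtac

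By the positions in the files (build mm9), the Otx2 probe lies at chr14:49278096-49278155 on the minus strand and the Pou3f1 probe at chr4:124336338-124336397 on the plus strand. The Zic2 probe lies at chr14:122878810-122878869 on the plus strand and the Zic5 probe at chr14:122858928-122858987 on the minus strand, 19822 bases apart, so the neighbouring genes were read on opposite strands. The Foxd3 probe lies at chr4:99325027-99325086 on the plus strand. Exon and UTR annotation of that build was not used here. The Pou3f1 probe is 55% GC with 8 CG over its 60 bases, and 92.6% of all probes had a lower GC share. The other 4 ranged from 35% (Otx2) to 41.7% (Zic2), beside an array median of 40%, and 5.7% of all probes had a lower GC share than the Otx2 probe. No member probe shared a run of more than 9 bases with any of the 22 other probes for members and their family relatives. Otx2 was printed in 10 spots on each array and every other member in 1.

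RefSeq promoter windows (250 bases before to 50 after a start, build GRCm38.p6) were matched for Otx2 (4 start sites), Zic5 (1) and Foxd3 (1), which are 6 of 32851 windows. The Foxd3 window held 25 CG and was 65.7% GC, and 81.6% of all windows held fewer CG. The Zic5 window held 15 CG, and the 4 Otx2 windows held 6 to 16. The letters GGATTA, to which Otx-type homeodomains bind, were searched on both strands and found in 7.06% of all windows and in 1 member window, of Otx2 itself, at position -211. Neither the octamer ATGCAAAT (1.74% of windows) nor TGTTTAC, a forkhead site (3.65%), nor CAGCAGG, part of a Zic site (10.5%), was in these 6 windows. The stretch with the match and the CG-rich stretch before the Foxd3 start are shown for contrast, with the match and the CG dinucleotides respectively in capitals.
Otx2, chr14:48665260-48665359 (minus strand): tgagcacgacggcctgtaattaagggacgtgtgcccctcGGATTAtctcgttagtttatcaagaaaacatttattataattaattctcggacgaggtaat
Foxd3, chr4:99656199-99656298 (plus strand): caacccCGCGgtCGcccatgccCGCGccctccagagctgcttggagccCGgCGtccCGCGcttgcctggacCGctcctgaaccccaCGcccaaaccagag

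Otx2, the homeodomain factor, was level between the clones before differentiation, at 0.11 and 0.09, and stood at 2.34 and 2.58 at EB day 1. It was 2.69 and 2.29 at EB day 3 and 0.88 and 0.40 at EB day 4. In monolayers it was 1.85 and 2.25 at day 1 and 1.00 and 1.55 at day 3. The order of the group means was EB day 3, EB day 1, ML day 1, ML day 3, EB day 4 and undifferentiated, and only the arrays of EB days 3 and 1 overlapped between neighbours in that order. The 10 spots of an array varied by an SD of 0.04 to 0.12, less than the gap between clones in every group except undifferentiated cells, where that gap was 0.02. In intensity units, the 10 spots averaged 519 and 530 in undifferentiated cells and 3850 and 2620 at EB day 3.

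**Figure D1:**
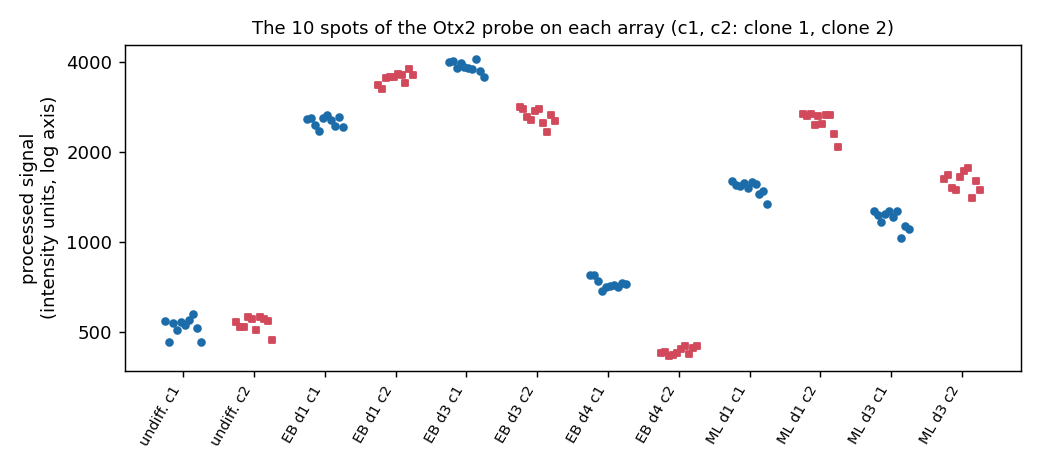
Processed signal (intensity units, log axis) of each of the 10 Otx2 spots on the 12 arrays, with clone 1 as blue circles and clone 2 as red squares. The spots of an array lie close together, and the EB day 1 and day 3 arrays are brighter than those of undifferentiated cells and EB day 4.

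Otx2 was higher than in undifferentiated cells by 2.36 ± 0.28 (standard error of the fit, here and below) at EB day 1 and by 1.95 ± 0.28 at ML day 1, without a test. From EB day 3 to EB day 4 it was lower by 1.85 ± 0.28, a 3.6-fold difference. In the comparisons that were tested, Otx2 rose 5.25-fold over undifferentiated cells at EB day 3 (2.39 ± 0.28, adjusted p = 0.000845, limma) and 2.26-fold at ML day 3 (1.18 ± 0.28, adjusted p = 0.0165). These share the undifferentiated arrays with the day 1 values. On arrays scaled to the spike-in controls, which takes the median gene at ML day 3 from 0.03 to -1.06, the ML day 3 change was 0.09 (adjusted p = 0.815). The EB day 3 change was then 1.21 (adjusted p = 0.00675), and the difference between EB days 4 and 3 was -0.67. The ML day 3 call also ended without clone 2 of ML day 3 (0.90, adjusted p = 0.0526) and without undifferentiated clone 2 (1.17, adjusted p = 0.0664).

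Pou3f1, the POU factor, had 5.17 and 4.11 in undifferentiated cells, 6.76 and 7.32 at EB day 1, 6.07 and 5.0 at EB day 3, and 3.04 and 3.34 at EB day 4. In monolayers it had 6.71 and 7.22 at day 1 and 5.56 and 6.46 at day 3. Both day 1 groups lay above every other array, EB day 4 lay below every other array, and the arrays of ML day 3, EB day 3 and undifferentiated cells overlapped between neighbours. The untested day 1 differences were 2.40 ± 0.48 in EB and 2.33 ± 0.48 in ML, and EB day 4 was 3.85 ± 0.48 below EB day 1, a 14.4-fold difference. At EB day 4 the signal fell to 2.73-fold below the undifferentiated level (-1.45 ± 0.48, adjusted p = 0.0385). Both groups of this comparison are among those the choice of members names, so it is not independent of that choice, for Pou3f1 as for the other members. This call was not held when single arrays were left out: it was made in 5 of 12 such fits, and without undifferentiated clone 1 the change was -0.92 (adjusted p = 0.218, in a range of 0.0259 to 0.218). Without EB day 4 clone 1 it was -1.30 (adjusted p = 0.156) and without EB day 4 clone 2 -1.6 (adjusted p = 0.0908), while leaving out either clone of EB day 1 (adjusted p = 0.0507) or of ML day 1 (adjusted p = 0.0504) left the value unchanged.

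Zic2, a zinc finger factor, had -3.21 and -3.93 in undifferentiated cells, the lowest of the 6 groups. That was a dim level, 52.1 and 32.7 intensity units, beside 74.8 and 46.1 for Zic5. Folds of Zic2 over undifferentiated cells therefore rest on a dim start. Zic2 stood at -0.20 and -0.16 at EB day 1, 0.98 and 0.54 at EB day 3, and -1.80 and -2.11 at EB day 4. In monolayers it was -0.92 and -0.39 at day 1 and -0.54 and -0.44 at day 3, which overlapped. EB day 3 was the highest group, and its 2 arrays lay above those of every other group. Day 1 was 3.39 ± 0.29 above undifferentiated cells in EB and 2.92 ± 0.29 in ML, without a test. With normexp background correction, which compresses dim signals, these differences were 2.30 and 1.86. Zic2 rose 20.1-fold at EB day 3 (4.33 ± 0.29, adjusted p = 0.000108) and 8.44-fold at ML day 3 (3.08 ± 0.29, adjusted p = 0.000483), and at EB day 4 it was still 3.07-fold above the start (1.62 ± 0.29, adjusted p = 0.00268). All 3 comparisons share the undifferentiated arrays with the day 1 values, so they are not independent of the choice of members. These 3 calls were made in all 12 fits that left out 1 array and with spike-in scaling, where the changes were 3.15, 1.99 and 1.62.

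Zic5, the neighbour of Zic2, was dim: -2.69 and -3.44 in undifferentiated cells, -2.18 and -2.51 at EB day 1, and -2.63 and -2.59 at EB day 3. At EB day 4 it read -4.30 and -4.50, and neither array was well above background. In monolayers it read -3.16 and -2.91 at day 1 and -3.56 and -2.83 at day 3, which overlapped each other and the undifferentiated arrays. The data thus go against the wording of the choice for Zic5 at these places: no signal well above background at EB day 4, and an ML day 1 difference of 0.02 ± 0.31. EB day 1 was 0.72 ± 0.31 above undifferentiated cells, but with spike-in scaling that difference was -0.57. By EB day 4, Zic5 was called lower than in undifferentiated cells (fitted change -1.34 ± 0.31, adjusted p = 0.00883). A floor was also used, the lowest signal well above background of any probe on the array. With neither EB day 4 array set below its floor, the difference was 2.25-fold. With normexp background correction, which compresses dim signals, the change was -0.17 (adjusted p = 0.547). The call ended without undifferentiated clone 1 (-0.96, adjusted p = 0.0552) and without EB day 4 clone 2 (-1.24, adjusted p = 0.0552).

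Foxd3, the forkhead factor, differed most between the undifferentiated clones, at 0.14 and -2.54 (530 and 85.9 intensity units). That gap of 2.68 was exceeded by 0.316% of the 18041 genes in that group. Foxd3 stood at 0.70 and 1.17 at EB day 1, 0.91 and -0.46 at EB day 3, and -2.70 and -3.07 at EB day 4. In monolayers it was 1.08 and 1.6 at day 1 and -0.72 and -0.33 at day 3. The only neighbours in the order of means whose arrays did not overlap were undifferentiated cells and EB day 4. The day 1 differences, untested, were 2.14 ± 0.75 in EB and 2.54 ± 0.75 in ML, and without undifferentiated clone 1 they were 3.47 and 3.88, without clone 2 0.80 and 1.20. No tested change of Foxd3 passed the threshold. At EB day 4 it was -1.68 ± 0.75 against undifferentiated cells (adjusted p = 0.101), which became -3.02 (adjusted p = 0.00527) without undifferentiated clone 2. Without undifferentiated clone 1, EB day 3 was 2.77 (adjusted p = 0.0125) and ML day 3 was 2.02 (adjusted p = 0.0344) above undifferentiated cells.

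**Figure D2:**
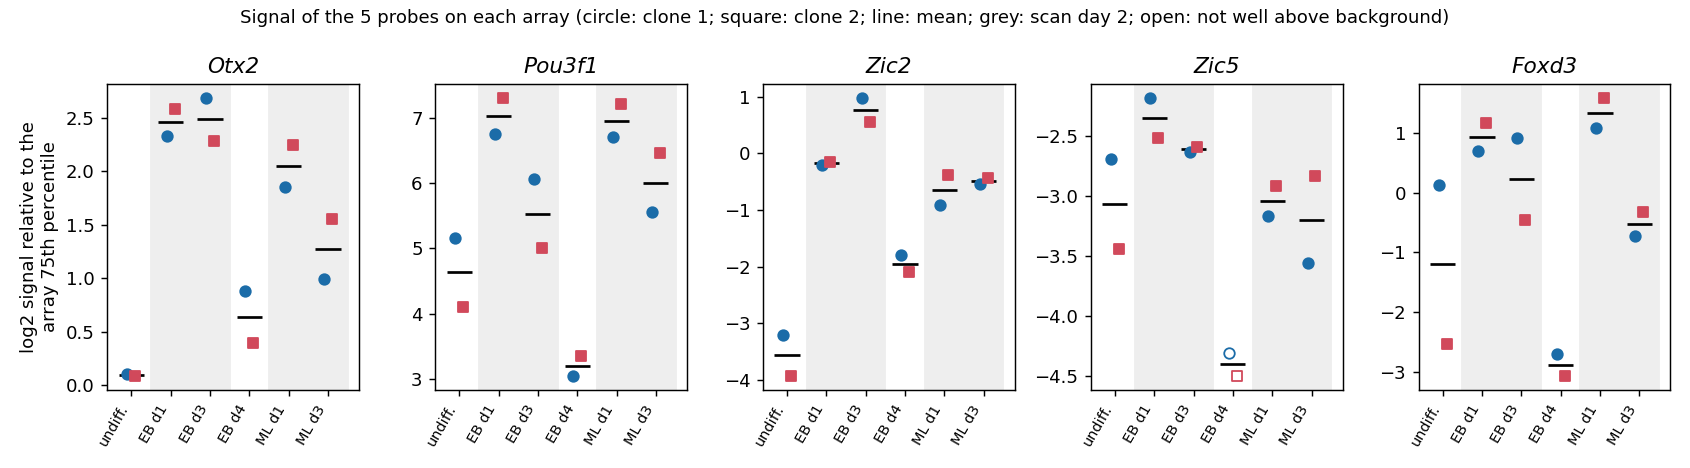
Log2 signal relative to the array's 75th percentile for the 5 genes in the 6 groups, with 1 point per array and a line at each group mean. Otx2, Pou3f1, Zic2 and Foxd3 are high at day 1 in both culture formats, whereas Zic5 lies between -2.18 and -3.56 in every group except EB day 4, where it is not well above background.

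All 5 members lay higher on both arrays of EB day 1 than on both of undifferentiated cells, as did 37.7% of all genes. For ML day 1 it was 4 of 5 members, all but Zic5, against 41.4% of genes. All 5 lay lower at EB day 4 than at EB day 1, as did 46.9% of genes, and all 5 lay lower than at EB day 3, as did 39.4%. The choice of members names these directions, so nothing is read from the counts. In bulk samples, fewer cells with a transcript and less of it per cell cannot be told apart. The spike-in controls moved the same way as the members in both steps, by 1.18 to 1.29. On arrays scaled to them, the EB day 1 differences were 1.07 for Otx2, 1.11 for Pou3f1, 2.10 for Zic2 and 0.84 for Foxd3. The EB day 4 minus EB day 1 differences became -0.53 for Otx2, -2.56 for Pou3f1, -0.48 for Zic2, -0.76 for Zic5 and -2.53 for Foxd3.

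The comparison of day 3 with day 1 within a culture format sets arrays of 1 slide side by side and asks how the genes behave once induced. The choice of members names a rise at day 1, so a comparison with the day 1 arrays is not independent of it. That holds in both formats and for the difference of the 2 steps between them. The standard errors of the comparison pool the spread within all 6 groups. For Foxd3 the SD was largest in undifferentiated cells (1.89), which are outside this comparison, and 0.26 to 0.97 in the other groups. In EB, none of the 5 members was called, against 3.07% of genes called higher and 2.31% called lower. At an unadjusted p under 0.05 there were 2 members and 3614 genes. These were Zic2, with 0.94 ± 0.29 (adjusted p = 0.108), and Pou3f1, with -1.50 ± 0.48 (adjusted p = 0.115), and for both the arrays of the 2 days did not overlap. Pou3f1 passed with normexp background correction (-1.72, adjusted p = 0.0489). Otx2 was at 0.03 ± 0.28 with a 95% interval from -0.60 to 0.66, Zic5 at -0.27 ± 0.31 and Foxd3 at -0.71 ± 0.75.

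In ML, none of the 5 was called either, against 5.75% of genes higher and 6.61% lower, and 2 members and 5387 genes had an unadjusted p under 0.05. These were Foxd3, at -1.86 ± 0.75 (adjusted p = 0.135), and Otx2, at -0.78 ± 0.28 (adjusted p = 0.101), both without overlap between the days. Pou3f1 was at -0.95 ± 0.48 (adjusted p = 0.217), also without overlap, while Zic2 (0.16 ± 0.29) and Zic5 (-0.15 ± 0.31) overlapped. Foxd3 passed with normexp (-1.84, adjusted p = 0.0491), with the 8 arrays of scan day 2 alone (-1.86, adjusted p = 0.0474) and without either undifferentiated clone (adjusted p = 0.0304). Otx2 passed without ML day 3 clone 2 (-1.05, adjusted p = 0.0368).

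The test of whether the step from day 1 to day 3 differs between formats called no member, against 0.15% of genes higher and 0.0887% lower in EB, and no member and 1829 genes had an unadjusted p under 0.05. The difference of the 2 steps (EB minus ML) was 0.80 ± 0.39 for Otx2 (adjusted p = 0.557), 0.78 ± 0.42 for Zic2 (adjusted p = 0.608) and 1.16 ± 1.06 for Foxd3 (adjusted p = 0.814). For Pou3f1 it was -0.55 ± 0.68 and for Zic5 -0.11 ± 0.44. The 95% intervals reach from -0.08 to 1.69 for Otx2 and from -1.23 to 3.54 for Foxd3. Differences of these sizes are not resolved by this fit, with 2 arrays a group. The Foxd3 interval also carries the spread of the undifferentiated clones, which are not part of this difference.

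Between formats at day 1, no member was called (0.00554% of genes were higher in EB and 0.061% lower), and no member and 1668 genes had an unadjusted p under 0.05. The member differences (EB minus ML) ran from -0.40 ± 0.75 for Foxd3 to 0.69 ± 0.31 for Zic5 (adjusted p = 0.549). At day 3, again none was called, against 1.57% of genes higher and 1.66% lower in EB, with 2 members and 3169 genes at an unadjusted p under 0.05. Otx2 was 2.32-fold (1.21 ± 0.28, adjusted p = 0.0525) and Zic2 2.39-fold (1.25 ± 0.29, adjusted p = 0.0567) higher in EB than in ML on every array, just outside the threshold. Both passed with normexp (adjusted p = 0.0293 and 0.0157), with a stricter filter on dim probes (0.0403 and 0.0434) and with a trended prior (0.0303 and 0.0446), and Otx2 also in the authors' value table (0.0481). Over fits without 1 array the difference ran from 0.94 to 1.49 for Otx2 and from 1.03 to 1.47 for Zic2. Neither passed with clone number in the fit as a block (adjusted p = 0.0696 and 0.0684). With the 2 groups compared alone, 0 genes were called. With spike-in scaling Otx2 was at 1.12 (adjusted p = 0.108) and Zic2 at 1.16 (adjusted p = 0.163). EB and ML were on different slides, so format and slide cannot be told apart here.

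**Figure D3:**
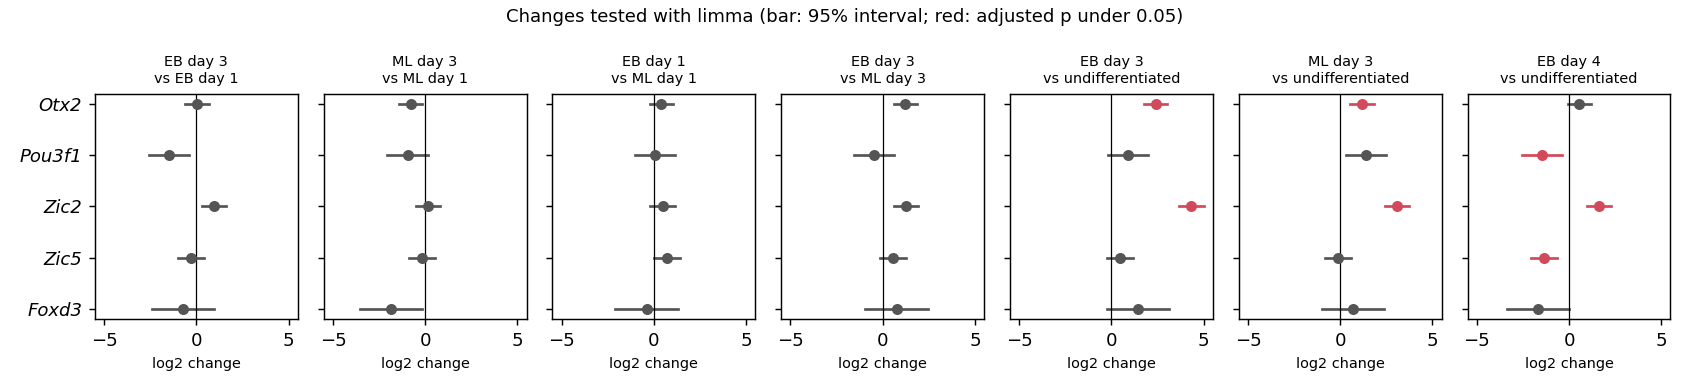
Log2 change of each member in 7 tested comparisons, with points for the limma estimate, bars for the 95% interval and red for an adjusted p under 0.05. Calls appear only against undifferentiated cells, where Zic2 has the largest change, 4.33 at EB day 3.

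Against undifferentiated cells, 2 of 5 members, Otx2 and Zic2, were called higher at EB day 3 and none lower, where 12.9% of all genes were higher and 10.7% lower. The choice of members names a rise at day 1 over these same undifferentiated arrays. The member counts here, at ML day 3 and at EB day 4 are therefore not independent of that choice. Pou3f1 was at 0.90 ± 0.48 (adjusted p = 0.201) and Foxd3 at 1.43 ± 0.75 (adjusted p = 0.194), and for both the arrays overlapped. Zic5 was at 0.45 ± 0.31 (adjusted p = 0.321). With spike-in scaling Pou3f1 (-0.28) and Zic5 (-0.73) turned negative. At ML day 3 the same 2 members were called higher and none lower, against 12.6% and 10.8% of genes. Pou3f1 was 1.38 ± 0.48 higher without overlap (adjusted p = 0.0667) and passed without undifferentiated clone 1 (1.91, adjusted p = 0.0404) and with a trended prior (adjusted p = 0.0417). Foxd3 was at 0.68 ± 0.75 and Zic5 at -0.13 ± 0.31, and with spike-in scaling these were -0.41 and -1.22 (the last with adjusted p = 0.00792).

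On the last EB day, 1 member (Zic2) was called higher and 2 (Pou3f1 and Zic5) lower than in undifferentiated cells, where 18.8% of genes were higher and 22% lower. Otx2 lay 0.54 ± 0.28 above the undifferentiated arrays without overlap and was not called (adjusted p = 0.147). The spike-in controls of these groups differed by 0, and 3 members were called with spike-in scaling too.

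Family relatives were read beside the members. Of 11 relatives listed, 8 passed the filter on dim probes. Zic1 passed it only through EB day 3 and both ML groups, Foxd4 only through EB days 3 and 4, and Foxd1 only through undifferentiated cells. Differences of those groups from the others were therefore built into their passing and are given without a test. Otx1, the other Otx gene measured, was dim, with group means from -4.35 in undifferentiated cells to -2.66 at EB day 1. Only 1 of its EB day 4 arrays was well above background. Otx1 was 3.1-fold higher at EB day 3 than in undifferentiated cells (1.63 ± 0.30, adjusted p = 0.00556) and was not called at ML day 3 (0.58 ± 0.30, adjusted p = 0.184). Pou3f3, a close relative of Pou3f1, was called 4.35-fold lower at EB day 4 (-2.12 ± 0.49, adjusted p = 0.00861) and 2.98-fold higher at ML day 3 (1.58 ± 0.49, adjusted p = 0.0469). Its untested day 1 differences were 2.74 ± 0.49 in EB and 2.67 ± 0.49 in ML, beside 2.40 and 2.33 for Pou3f1. With spike-in scaling Otx1 at EB day 3 was at 0.45 (adjusted p = 0.224) and Pou3f3 at ML day 3 at 0.48 (adjusted p = 0.407), so both higher calls ended, while Pou3f3 at EB day 4 stayed at -2.12 (adjusted p = 0.00981).

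Among the ZIC genes, Zic1 was not well above background in undifferentiated cells. With neither undifferentiated array set below the floor used for Zic5, Zic1 was 2.47-fold higher at EB day 3, 3.45-fold at ML day 3 and 3.11-fold at EB day 4. At EB day 4 only 1 of the 2 arrays was well above background. With spike-in scaling the fitted changes of Zic1 were 0.96 at EB day 3, 1.53 at ML day 3 and 2.47 at EB day 4. Zic4 was called in none of the 8 tested comparisons, with changes from -0.58 to 0.61. With spike-in scaling Zic4 was called lower at EB day 3 than in undifferentiated cells (-0.96, adjusted p = 0.0416), as were 11662 of 18041 genes.

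Foxd4 was not well above background on either array in undifferentiated cells, at EB day 1 or at ML day 3. With none of these arrays set below its floor, Foxd4 was 77.2-fold higher at EB day 4 than in undifferentiated cells. At EB day 3 it was 5.95-fold higher than in undifferentiated cells, 3.78-fold higher than at EB day 1 and 5.05-fold higher than at ML day 3. With spike-in scaling its fitted change against undifferentiated cells was 2.00 at EB day 3 and 6.88 at EB day 4. Foxd2 was called in none of the 8 tested comparisons. Foxd1 stood at -0.84 at EB day 3, -1.31 at ML day 3 and -0.2 at EB day 4 against undifferentiated cells, without a test. It was called in no comparison between other groups. With spike-in scaling Foxd1 was at -2.02 and -2.4 at EB day 3 and ML day 3. Foxd2 was then called lower there (-1.34, adjusted p = 0.0484, and -1.44, adjusted p = 0.0391), as were 11662 and 11036 of 18041 genes.

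**Figure D4:**
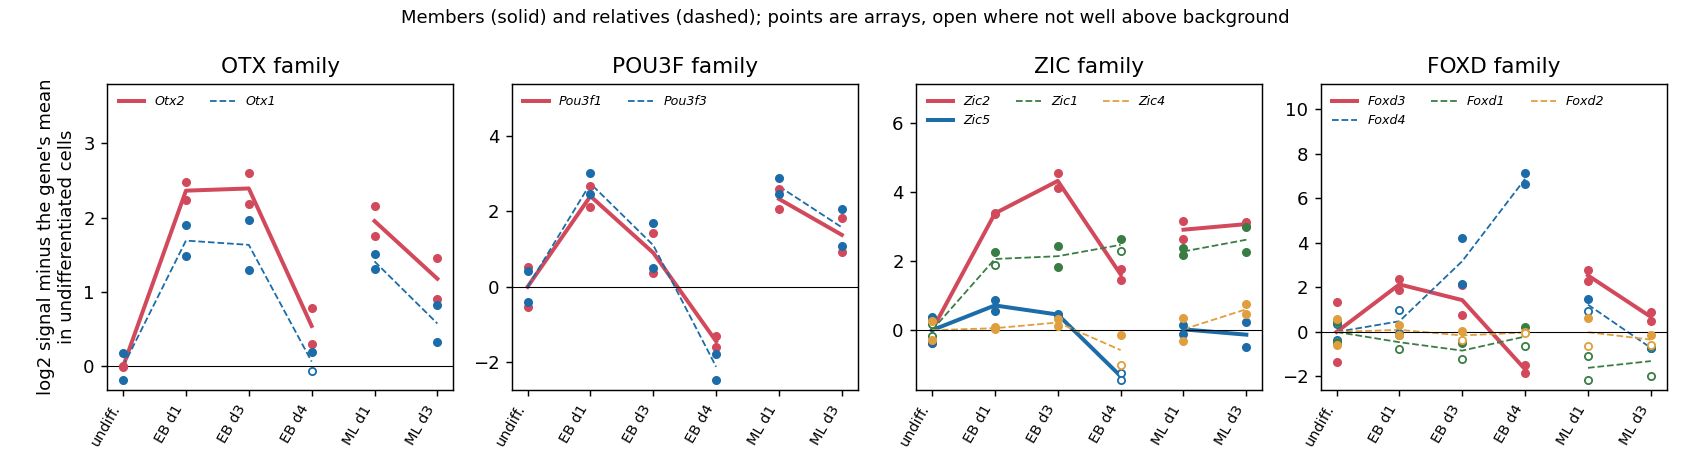
Log2 signal of members (solid lines) and family relatives (dashed lines) minus each gene's mean in undifferentiated cells, with 1 point per array, open where it was not well above background. Pou3f3 runs close to Pou3f1 and Otx1 below Otx2, and Foxd4 is highest at EB day 4.

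The genes most like each member over the 12 arrays were sought among 14521 genes with a symbol, by Pearson r. These arrays share the 6 groups and 4 slides, so r is a description. Pou3f3 was nearest to Pou3f1 (r = 0.995 over 12 arrays and 0.998 over the 8 arrays of scan day 2), followed by Mup6 (0.988) and Bhlhe23 (0.986). Otx1, dim as given above, was nearest to Otx2 (0.972, and 0.974 over the 8 arrays), followed by Rpa3 (0.957) and Ddt (0.944). So for these 2 members the nearest of all genes was a gene of the same family. No family member was among the nearest 3 of the others. They were Spin1 (0.967), Abi2 (0.964) and Lsm8 (0.951) for Zic2, Stmn3 (0.955), Xpo6 (0.931) and Fam53b (0.923) for Zic5, and G3bp2 (0.979), Gatad2a (0.975) and Myef2 (0.966) for Foxd3. For Zic2 the r fell to 0.766, 0.864 and 0.589 over the 8 arrays. The probes of these 15 genes shared no run of more than 8 bases with the probe of their member, and the Pou3f3 and Pou3f1 probes shared 5.

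Among the members, Pou3f1 and Foxd3 were most alike (r = 0.94 over 12 arrays and 0.81 over the 8 of scan day 2). Otx2 and Zic2 followed (0.91 and 0.62). Zic2 and Zic5, the neighbouring pair, were least alike over the 12 arrays (0.48, and 0.50 over the 8). The RefSeq table lists 1 gene, 2610035F20Rik, between them. Pou3f1 and Zic2 went from 0.58 over 12 arrays to -0.43 over the 8, where Zic2 is highest at EB day 3 and Pou3f1 at day 1.

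Other genes of the formative and primed epiblast were read from a list of 24, of which 23 were measured. At EB day 3, 11 rose over undifferentiated cells and 2 fell (median 0.89, against 0.05 for all genes), where 12.9% of all genes rose and 10.7% fell. Fgf5, the growth factor that marks the early postimplantation epiblast, rose most (6.76 ± 0.58, adjusted p = 0.000222), ahead of the activin antagonist Fst (4.24 ± 0.59, adjusted p = 0.00188) and the cadherin Cdh2 (4.06 ± 0.55, adjusted p = 0.00159). At ML day 3, 11 rose and 4 fell (median 0.75), against 12.6% and 10.8% of all genes. Fgf5 (6.05 ± 0.58, adjusted p = 0.000483) and Fst (3.02 ± 0.59, adjusted p = 0.00801) were among those that rose. At EB day 4, 10 were higher and 6 lower (median 0.18), against 18.8% and 22% of all genes. Cdh2 (5.14 ± 0.55, adjusted p = 0.000196) and Fgf5 (4.78 ± 0.58, adjusted p = 0.000358) were among the higher, and the chromatin-associated factor Utf1 (-4.04 ± 0.55, adjusted p = 0.00062) among the lower. With spike-in scaling, changes at EB day 3 and ML day 3 against undifferentiated cells shift down by 1.18 and 1.09, and the list then had 5 genes higher and 6 lower at EB day 3 (median -0.29), 6 higher and 7 lower at ML day 3 (median -0.35) and 8 higher and 6 lower at EB day 4 (median 0.18).

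Within EB from day 1 to day 3, 1 gene of the list rose and 2 fell (median 0.04), against 3.07% and 2.31% of all genes. Cdh2 rose (2.23 ± 0.55, adjusted p = 0.0499). The basic helix-loop-helix factor Tcf15 (-2.51 ± 0.60, adjusted p = 0.045) and the DNA methylation cofactor Dnmt3l (-2.40 ± 0.33, adjusted p = 0.00655) fell. Within ML, 5 rose and 4 fell (median 0.15), against 5.75% and 6.61% of all genes. Tcf15 (-3.02 ± 0.60, adjusted p = 0.0139) and the DNA methyltransferase Dnmt3a (-2.34 ± 0.56, adjusted p = 0.0276) were among those that fell. At day 3, Epha4 was higher in EB than in ML (1.86 ± 0.38, adjusted p = 0.0336) and Dnmt3l was lower (-2.22 ± 0.33, adjusted p = 0.0115), beside the 1.21 of Otx2 and 1.25 of Zic2. Neither the day 1 comparison of formats nor the difference of the 2 steps called any of the 23.

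**Figure D5:**
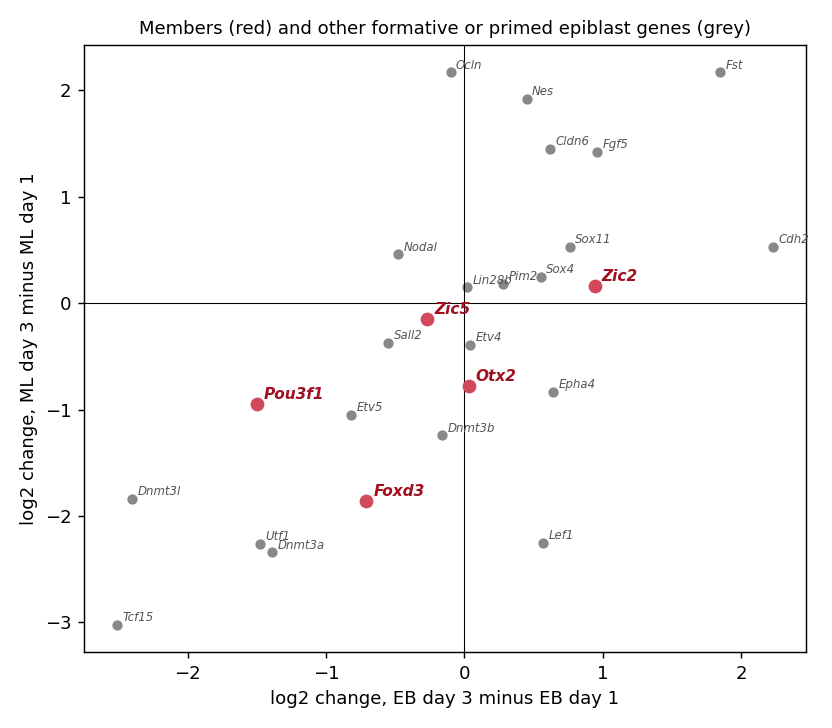
Log2 change from day 1 to day 3 in embryoid bodies (horizontal) and in monolayers (vertical) for the 5 members (red) and other formative or primed epiblast genes of the list (grey). The 2 axes share no arrays. Pou3f1 lies at -1.50 and -0.95, Foxd3 at -0.71 and -1.86, and Zic2 at 0.94 and 0.16, and no member passed the test on either axis.

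Because the members are also used in neural and neural crest cells, markers of those types are given beside them. The summed level of 11 measured anterior neural genes ran from 8.85 to 16.4 times the 75th percentile on 11 arrays and was 30 on ML day 3 clone 1, where Nes alone made up 26.8. Against undifferentiated cells 2 of the 11 were called higher and 5 lower at EB day 3, 2 and 4 at ML day 3, and 3 and 5 at EB day 4. The shares of all genes called were 12.9% higher and 10.7% lower, 12.6% and 10.8%, and 18.8% and 22% respectively. The 8 measured neural crest genes summed to between 1.96 and 8.18 on the 10 arrays outside EB day 4 and to 19.4 and 31.8 at EB day 4. Of these last sums, Msx2 made up 66.2% in clone 1 and Snai2 41.5% in clone 2. Of the 8, 4 were called higher and 1 lower at EB day 4 than in undifferentiated cells, against 18.8% and 22% of all genes. The 14 measured naive pluripotency genes summed to 372 and 349 in undifferentiated cells, 319 and 264 at EB day 1, 202 and 189 at EB day 3, and 114 and 126 at EB day 4. In monolayers they summed to 299 and 307 at day 1 and 188 and 188 at day 3. Klf2 was the brightest of the 14 in every group, at 7.35 in undifferentiated cells, 7.36 at EB day 3 and 7.32 at ML day 3. Against undifferentiated cells, 10 of the 14 were called lower at EB day 3 (median -3.01) and 9 at ML day 3 (median -3.76). At EB day 4, 13 were called lower and 1 higher (median -4.23). The shares of all genes called lower were 10.7%, 10.8% and 22%. Primitive streak genes, 11 of 11 measured, summed to 1.44 and 1.84 in undifferentiated cells, 110 and 139 at EB day 3 and 33.2 and 35.6 at ML day 3. Within EB from day 1 to day 3, 10 of them were called higher, against 3.07% of all genes. Genes of the anterior visceral endoderm, a tissue that also expresses Otx2 in the embryo, were read in the comparison in which Otx2 stood at 1.21. Of 10 measured, 7 were called higher in EB than in ML at day 3 (median 3.36, against 0.02 over all genes). Of the 11 primitive streak genes, 5 were called higher there too (median 2.6), and Lhx1 and Gsc are in both lists. Of all genes 1.57% were called higher. Whether cells of either kind contribute to the members' signal was not tested.

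Fibroblast markers, 12 of 15 measured, differed between the clones of the undifferentiated group. They summed to 49.7 and 30.8 there, 10 of 12 were higher in clone 1 (median gap 0.95), and all 5 members were higher in clone 1 as well. The sums were 24.5 and 20.9 at EB day 1, 23.6 and 26.6 at EB day 3, 39.7 and 54.6 at EB day 4, 42.7 and 33.4 at ML day 1, and 56.8 and 45.5 at ML day 3. In the other groups, those higher in clone 1 were 11 of 12 markers and 1 of 5 members at EB day 1. They were 3 markers and 4 members at EB day 3, and 1 marker and 4 members at EB day 4. In monolayers they were 4 markers at day 1 and 10 at day 3, with no member on either day. The part of other cells in the clone gaps was not tested.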

How the data were processed

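The members and gene lists were chosen with earlier results of these data known. Total RNA was labelled with Cy3 and hybridised to 12 one-colour whole mouse genome arrays, per the labels' protocols. The deposited scanner files hold spot intensity, background-subtracted and detrended by the authors' Feature Extraction run, per the file headers (versions 10.5.1.1, 10.7.3.1 and 10.7.1.1 by scan day; 9.5.1.1 per the submitters' processing notes), with quality flags that are another kind of value. The authors' deposited value table gives linear intensity with the same quantiles (median 36.6) in all columns; it correlated at 0.998 to 1 with the scanner values and served as an alternative. How the authors normalised it is not given in the sources used here.

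Signals were expressed as log2 relative to each array's 75th percentile. Flagged outlier spots (51 to 172 per array) were left out, replicate spots averaged, and probes kept that were well above background on both arrays of some group (26176 of 41174). The probe with the highest mean stood for its gene (18041 genes, 14522 with a symbol). Limma 3.58.1 in R 4.3.3 fitted 6 group means to 12 arrays (6 residual degrees of freedom). Of 12 comparisons, 8 were tested, two-sided, with Benjamini-Hochberg adjustment over all genes, and called at an adjusted p under 0.05; 4 are described only. With 2 arrays a group, their number limits the precision. Clone numbers did not pair the arrays (r of deviations -0.154 to 0.227 over 15 pairs of groups, over 0.1 in 2). The fit was tested on simulated data. Named were the 5 members, the 3 genes most like each, the family relatives and up to 3 called genes of each list per comparison; genes beyond these were chosen after their values were seen, and some genes are not reported here. Alternatives were another background correction, normalization, value table, dim filter, probe summary, block, fit and prior, and leaving out each array; scan day 2 alone and spike-in scaling were added after seeing the data.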

Additional observations from a re-analysis of the deposited data

How the results depend on the processing

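Of the 5 members, 1 was called within EB with normexp background correction (0 as reported above), and 1 within ML with normexp and with scan day 2 arrays alone. Between formats at day 3, 2 were called with normexp, a strict dim filter or a trended prior and 1 in the authors' table. At ML day 3 against undifferentiated cells 1 was called with the groups compared alone, where Otx2 had adjusted p = 0.123. Over fits without 1 array the member counts ran from 0 to 1 within ML and between formats at day 3, and from 1 to 4 for ML day 3 and for EB day 4 against undifferentiated cells. With the replicate block the members called were 0 in the 5 comparisons within scan day 2, 2 at EB day 3, 2 at ML day 3 and 2 at EB day 4 (Pou3f1 adjusted p = 0.0511).

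All genes called, main count first: EB day 3 against day 1, 971, 572 without a dim filter, 645 with a strict one, 100 to 1379 without 1 array. ML day 3 against day 1, 2229, 650 with groups alone, 375 to 4804. Formats at day 1, 12, 1 without a filter, 0 strict, 23 with probe means, 5 with the block, 3 with groups alone, 20 with a trended prior, 3 with spike-in scaling, 1 to 13. Formats at day 3, 584, 369 without a filter, 0 with groups alone, 342 with spike-in scaling, 111 to 2479. Difference of the steps, 43, 6 without a filter, 26 strict, 9 with groups alone and with scan day 2 alone, 17 with spike-in scaling, 0 to 294. Against undifferentiated cells, EB day 3 had 4260, 1646 with groups alone, 12076 with spike-in scaling (414 higher, 11662 lower), 1861 to 5529. ML day 3 had 4224, 965 with groups alone, 11400 with spike-in scaling (364 higher, 11036 lower), 2385 to 5807. EB day 4 had 7356, 13757 without a filter, 4736 to 8460. With spike-in scaling, 3 members lay above and 1 below undifferentiated cells on both arrays of EB day 1.

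Signs turned for Zic5 at ML day 3 against undifferentiated cells (0.04 quantile, 0.03 authors' table), at ML day 1 (-0.01 normexp, -1.24 spike-in), at EB day 1 (-0.57 spike-in), at EB day 3 (-0.73 spike-in) and within ML (0.02 spike-in), and with spike-in scaling for Pou3f1 at EB day 3 (-0.28) and Foxd3 at ML day 3 (-0.41). Without 1 array the ranges that cross 0 were, for Otx2 within EB, -0.17 to 0.23, for Zic2 within ML, -0.10 to 0.42, for Zic5 within ML, -0.52 to 0.21, for Pou3f1 between formats, -0.20 to 0.35 at day 1 and -1.01 to 0.06 at day 3, for Zic5 in the difference of steps, -0.47 to 0.25, for Zic5 against undifferentiated cells, -0.51 to 0.24 at ML day 3 and -0.35 to 0.40 at ML day 1, and for Foxd3 at ML day 3, -0.66 to 2.02. The cause was not tested. Zic5 was not well above background on either EB day 4 array.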
